A study of Mus musculus with 21 samples.

Results

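The collagen genes of the mouse were followed through the conversion of embryonic fibroblasts with dendritic cell transcription factors. The group held 44 of the 24455 genes in the deposited single-cell count table, all those whose symbol is Col, a number, a and a number with nothing after it, so that Col4a3bp, which only begins like a collagen symbol, was left out. The study gave 21 droplet libraries of 25991 cells: 2 of untransduced wildtype mouse embryonic fibroblasts (MEF), 16 of transduced MEF and 3 of dendritic cells from wildtype spleen.

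The untransduced MEF were sorted only as live (DAPI-) cells. Transduced MEF received lentiviral vectors on gelatin-coated plates in DMEM with 10% FBS and were collected on day 3 or day 9, with 1 library for each arm and day. Of the 8 arms, 6 used Clec9aCre/Cre Rosa26stopflox-tdTomato/tdTomato fibroblasts sorted as live tdTomato+ cells: Pu.1 and Irf8 (PI8), the same with Batf3, spelled Baft3 in the labels (PIB), Pu.1 and Irf4 (PI4), the same with Prdm1 (PIP), Spib and Irf8 (SI8), and the same with Ikzf2 (SII). SI8 and SII were also made in hCD2Cre/WT Rosa26stopflow-YFP/WT fibroblasts, as the labels spell the allele, and sorted as YFP+ cells. Clec9a is active in dendritic cell lineages, so a tdTomato+ cell is one that had switched this promoter on at some time, and the sort removed cells that had not. Splenic cells were cDC1 (CD11c+MHC-II+CD8alpha+), cDC2 (CD11c+MHC-II+CD11b+) and pDC (CD11c+SiglecH+B220+BST2+), with 1 library each. Genotype, virus, culture and sort all separated the transduced cells from the MEF, and their parts in a difference cannot be told apart. The labels name no separate cultures or animals for any group, so the spread between the MEF libraries could be technical only. In the comparisons of a day with MEF, the 8 arms stood as replicates although they differ in factor set or line. In those of an arm with MEF, its day 3 and day 9 libraries did. No p-value here measures the spread between cultures or animals known to be separate.

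Collagens are extracellular proteins built from chains wound into a triple helix. Fibrillar collagens (types I, III, V, XI and others) assemble into the fibrils of connective tissue, type IV forms the sheet of basement membranes, type VI makes beaded filaments around cells, and fibril-associated types such as XII and XVI sit on fibril surfaces. Fibroblasts are the main source of fibrillar collagen, whereas dendritic cells are not known as collagen producers. Chains are modified and folded in the endoplasmic reticulum, exported as procollagen, trimmed outside the cell and crosslinked.

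The smallest library, SI8 of the hCD2 line on day 3, held 2291128 UMIs, and the largest, SII of the Clec9a line on day 3, held 89394715, from 411 to 4169 cells per library, with median depths of 2765 to 82866 UMIs per cell. Levels below are CPM, the UMIs of a gene scaled to a common library total. Each UMI stands for a transcript's 3′ end, so CPM was not divided by gene length. Shares and ranks of genes within a library refer to UMIs counted and not to amounts per length, and pairs of genes are compared through ratios followed across libraries. Counts of 4 genes of the Y chromosome summed to 0 or 1 in each library of the hCD2 line. One library of the Clec9a line stood apart from its line. These genes summed to between 40.4 and 96.0 CPM in its other 11 libraries and to 1 count in the library labelled PI8 day 9. The same library held 309.6 CPM of Cd34 and 142 CPM of Kit, against 9.38 and 0.0964 CPM in PI8 day 3, and its 10 fibroblast markers other than collagens summed to 11.5 CPM, against 164 to 3095 CPM in the other 15 transduced libraries and 4633 and 4575 CPM in MEF. The main numbers of calls are also given without it. In the hCD2 line, 8.32% and 10.8% of UMIs of the SI8 libraries came from Gm42418, AY036118 and Lars2, used here as signs of RNA quality, against 0.0836% and 0.0764% in MEF and 0.146% to 0.593% in SII. Of 210 pairs of libraries, 64 shared a cell barcode and none shared more than 4.

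The 44 genes are scattered over the genome, and several lie as neighbouring pairs. Col4a1 (GRCm38, chr8:11198423-11312826, minus strand) and Col4a2 (chr8:11312805-11449287, plus strand) run in opposite directions from starts that overlap by 22 bases. Col4a6 (chrX:141165403-141474076, minus strand) and Col4a5 (chrX:141475385-141689234, plus strand) run apart from starts separated by 1308 bases. Col4a3 and Col4a4 likewise run apart, from starts separated by 71 bases. Col3a1 and Col5a2 lie tail to tail on chromosome 1, with 24614 bases between their 3′ ends. The upstream sequences of 3 genes are shown: Col3a1, which gave the most UMIs of the fibrillar genes in MEF and was called lower in all 8 arms, and the pair Col4a5 and Col4a6, which were higher when Ikzf2 was added. They are from RefSeq, build GRCm38.p6, read 5′ to 3′ on the gene's own strand, without transcribed bases: chr1:45311288-45311537 (plus strand) for Col3a1, chrX:141475169-141475369 (plus strand) for Col4a5 and chrX:141474096-141474326 (minus strand) for Col4a6. Capitals mark TATAAA in Col3a1, CCAAT and then TGGGAA in Col4a5, and TGGGAA on the opposite strand, which reads TTCCCA, in Col4a6.
Col3a1: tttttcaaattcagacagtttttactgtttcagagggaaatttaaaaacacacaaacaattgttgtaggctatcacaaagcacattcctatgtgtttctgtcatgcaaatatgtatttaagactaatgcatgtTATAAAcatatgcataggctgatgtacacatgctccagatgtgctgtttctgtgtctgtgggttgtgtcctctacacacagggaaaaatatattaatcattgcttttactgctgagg
Col4a5: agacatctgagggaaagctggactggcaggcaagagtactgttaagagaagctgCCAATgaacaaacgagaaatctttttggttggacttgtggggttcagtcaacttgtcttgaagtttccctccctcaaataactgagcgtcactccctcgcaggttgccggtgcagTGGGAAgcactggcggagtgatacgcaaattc
Col4a6: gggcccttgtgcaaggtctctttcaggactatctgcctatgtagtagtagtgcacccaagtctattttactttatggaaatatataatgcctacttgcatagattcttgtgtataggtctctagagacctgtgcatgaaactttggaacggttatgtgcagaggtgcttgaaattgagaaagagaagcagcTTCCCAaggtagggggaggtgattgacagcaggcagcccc

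TGGGAA is a core sequence of the Ikaros family, to which Ikzf2 belongs. It was present on either strand in 12 of the 38 windows of 300 bases that the RefSeq table holds for 35 of the collagen genes (31.6%), and in 25.6% of all 32851 windows. Among genes higher with Ikzf2, Col4a5, Col4a6 and Col10a1 had a match and Col16a1 had none. Among genes lower with Ikzf2, Col18a1 had a match and Col4a1, Col4a2, Col7a1 and Col15a1 had none. The other genes called with Ikzf2 were Col12a1 (higher) and Col1a1, Col5a2, Col14a1 and Col22a1 (lower). They are not among the genes with a match, and not every collagen gene has a window. A link between match and change was not tested. CCAAT was found in 34.2% of collagen windows and 37.4% of all windows, TATAAA in 13.2% and 13.6%, and GGAAGT, a core of Ets factors such as Pu.1, in 21.1% and 23.8%. The shares of these 4 motifs in collagen windows were near those of all windows. A composite Ets and IRF element, GGAA followed after any 2 bases by GAAA, and an IRF element, 2 copies of GAAA with any 2 bases between them, were in 0 of the 38 collagen windows and in 2.72% and 3.44% of all windows. No overlap between motifs was removed, and a match is a description of letters, not a bound site.

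Untransduced MEF gave collagen genes 2.09% and 2.05% of all UMIs, or 20887 and 20538 CPM. The transduced libraries had between 36.8 and 3628 CPM, with a median of 1149 CPM. Without the library labelled PI8 day 9 the lowest was 539 CPM. PIB was highest, with 3106 CPM on day 3 and 3628 CPM on day 9, followed by PIP on day 9 with 1565 CPM. Splenic cDC1, cDC2 and pDC had 21.1, 18.5 and 13.5 CPM.

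**Figure D1:**
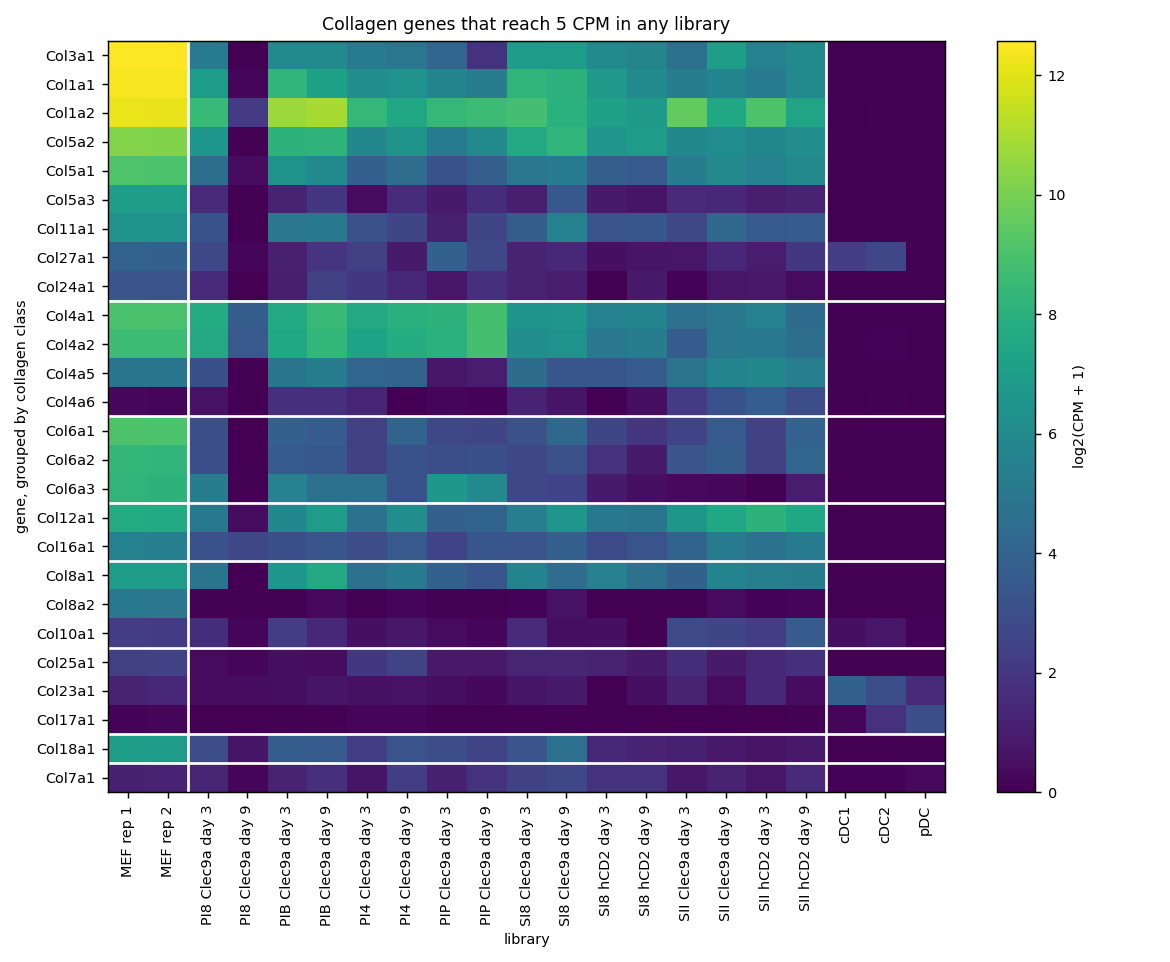
Colour gives log2(CPM + 1) of each collagen gene (rows, those that reach 5 CPM in any library, grouped by class with white lines between classes) in each of the 21 libraries (columns). The fibrillar rows are brightest in the 2 MEF columns, type IV rows stay visible in PI8 day 3, PIB, PI4 and PIP, and the splenic columns are nearly empty except for Col23a1, Col27a1 and Col17a1.

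The composition moved as well as the sum. Fibrillar genes took 87.3% and 87.5% of collagen UMIs in MEF and 33.2% to 80.4% in the transduced libraries other than the library labelled PI8 day 9, where they took 16.7%. Type IV genes took 4.44% and 4.45% in MEF, 46.8% and 58.8% in PIP (day 3 and day 9) and 36.8% and 45.4% in PI4. In PI8 they took 34.2% on day 3 and 62.3% in the library labelled PI8 day 9, the highest of the 21 libraries. The latter share rests on 142 of only 228 collagen UMIs. Type IV genes summed to 22.9 CPM there, against 415.5 CPM in PI8 day 3. The type IV share was 13.7% and 19.6% in PIB, 12.9% to 18.4% in SI8 and 5.82% to 12.9% in SII. Fibril-associated genes took 1.25% and 1.24% in MEF and 10.3% to 26.7% in SII, more than the 3.52% to 7.63% of SI8. Col3a1, Col1a1 and Col1a2 supplied 77.8% and 78.0% of MEF collagen UMIs, whereas in PIP on day 9 the leading genes were Col4a2, Col4a1 and Col1a2 with 83.4%.

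The comparison of transduced cells with MEF shows which collagen genes were lower after the factors and the sort. Of the 44 genes, 36 had enough counts to be tested with edgeR's quasi-likelihood test, in which a call means a Benjamini-Hochberg adjusted p under 0.05 over all genes. On day 9, 12 of the 36 were lower than in MEF and 0 were higher, against 5.54% of all 16538 tested genes called lower and 5.01% called higher. On day 3, 14 were lower and 0 higher, against 8.38% of all genes lower and 8.7% higher. The median log2 difference of the tested collagen genes was -2.07 on day 9 and -2.02 on day 3, and that of all tested genes was 0.19 and 0.14. DESeq2 called 9 collagen genes on day 9, while over all genes it called more than the 1746 of edgeR. The shares of all genes above therefore do not apply to its count. The other 8 genes (Col4a3, Col6a4, Col6a5, Col6a6, Col13a1, Col17a1, Col20a1 and Col26a1) had too few counts for this test. With the library labelled PI8 day 9 left out, the day 9 count was 14 (9.78% of all genes lower) and the day 3 count 16 (12.9%), and on day 9 Col3a1 differed by -6.53, Col1a1 by -5.69, Col6a1 by -5.58, Col5a1 by -3.88 and Col8a2 by -7.37, all still called. Leaving out either MEF library left 8 or 7 calls on day 9 (264 or 267 over all genes, of 1746), without Col18a1, Col1a2, Col28a1 and Col5a1, and 9 on day 3, without Col11a1, Col16a1, Col18a1, Col28a1 and Col5a2.

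Fibrillar genes accounted for 5 of the 12 calls on day 9 and 6 of the 14 on day 3, out of 11 tested. Col3a1, the chain of type III collagen, measured 6113 and 6057 CPM in MEF. Its 8 libraries of day 3 ran from 16.02 through a median of 40.7 to 118 CPM, and those of day 9 from 0 through 57.6 to 133 CPM. Every transduced library was far below both MEF. Col3a1 fell by 6.76 ± 1.06 on the log2 scale on day 3 (SE, adjusted p = 0.00055) and by 6.69 ± 1.06 on day 9 (adjusted p = 0.000951).

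Col1a1, the main chain of type I collagen, measured 5437 and 5409 CPM in MEF. It ran from 36.7 through 89.7 to 300.5 CPM on day 3 and from 0.161 through 62.2 to 274 CPM on day 9, with SI8 of the Clec9a line highest on both days. No transduced library overlapped with MEF. The log2 difference was -5.22 ± 1.00 on day 3 (adjusted p = 0.00227) and -5.85 ± 1.02 on day 9 (adjusted p = 0.00175).

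Col1a2, the partner chain of Col1a1 in type I collagen, lay nearer to its MEF level than Col1a1 did in all 16 transduced libraries. It measured 4701 and 4562 CPM in MEF, 145 through 409 to 1673 CPM on day 3 and 3.39 through 186 to 1920 CPM on day 9. PIB was highest on both days, and no transduced library reached MEF. The difference was -3.49 ± 1.01 on day 9 (adjusted p = 0.035) and -2.89 ± 1.02 on day 3, where it missed the threshold (adjusted p = 0.059). EdgeR called it on both days without the library labelled PI8 day 9 (adjusted p = 0.0091 on day 9 and 0.0126 on day 3). The ratio of Col1a2 to Col1a1 was 0.865 and 0.843 in MEF and higher in all 16 transduced libraries, between 0.962 and 21 with a median of 4.07. PIB had ratios of 5.68 and 13.0, PIP 6.61 and 10.1, and SII 18.9 and 14.4 on day 3 and 3.65 and 2.63 on day 9 (Clec9a and hCD2 lines). SI8 lay closest to MEF, with 1.498, 0.962, 1.37 and 1.76, and the ratio of 21 in the library labelled PI8 day 9 rests on 1 Col1a1 count.

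**Figure D2:**
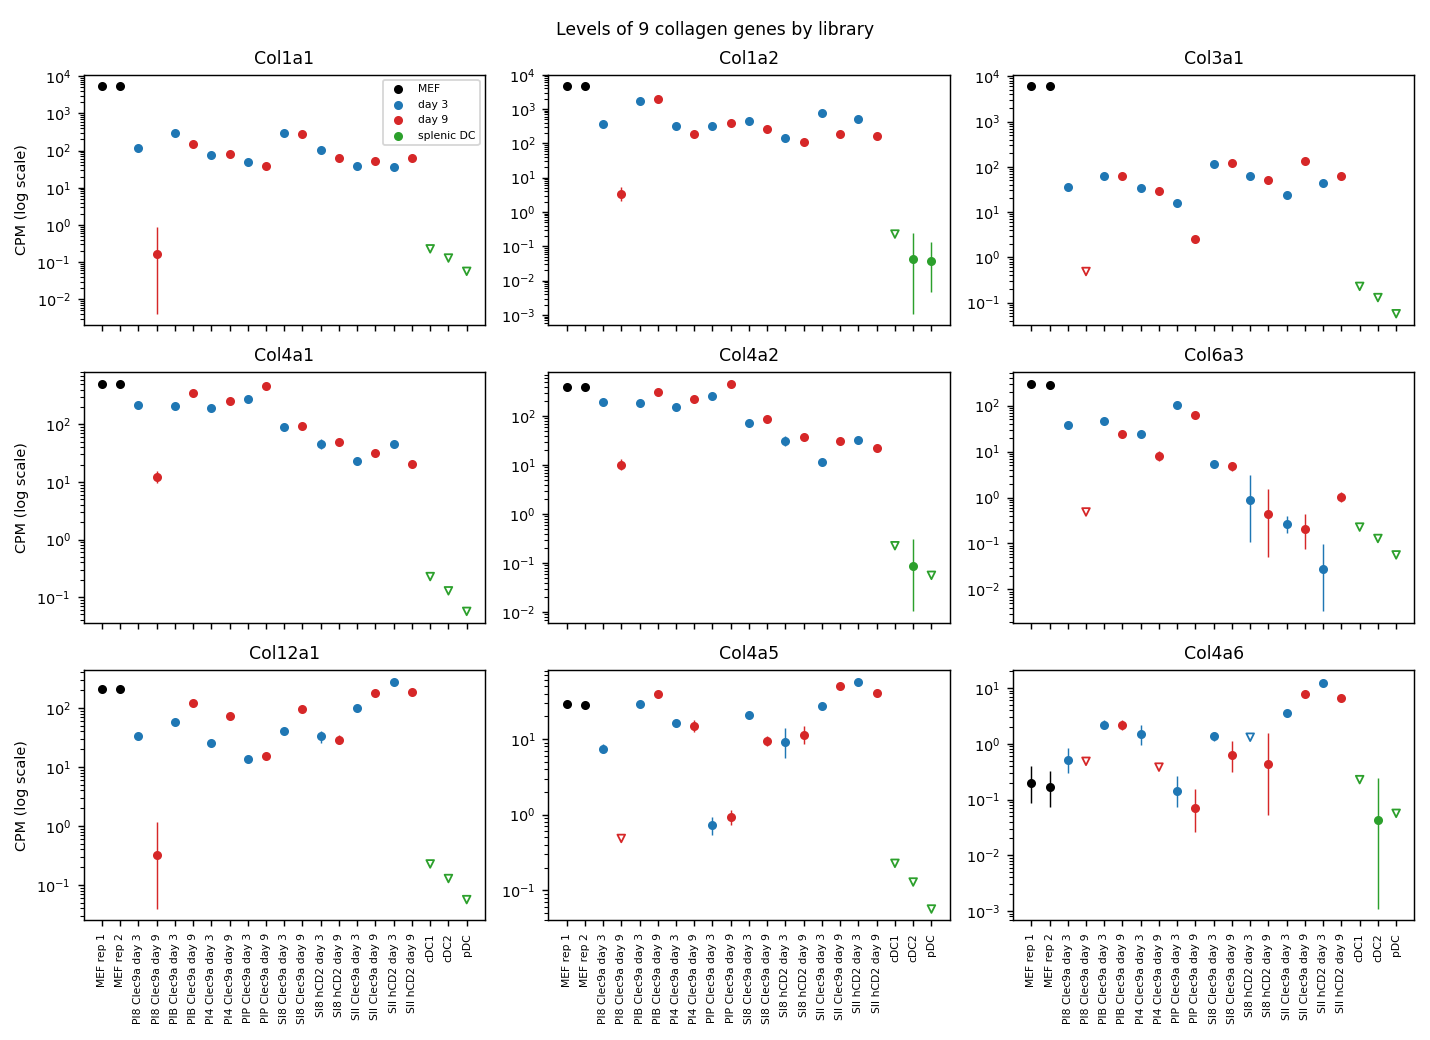
Levels of 9 collagen genes (CPM, log axis) in the 21 libraries; points are libraries, bars are exact Poisson 95% intervals that cover counting error only, and open triangles mark the limit that a count of 0 allows (3 counts). Col3a1 and Col1a1 lie far below the 2 MEF points in every transduced library, whereas Col4a1 in PIP on day 9 (459 CPM) and Col12a1 in SII on day 3 of the hCD2 line (279 CPM) lie near or above theirs.

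The type V and XI chains, which set the width of fibrils, were also lower. Col5a1 measured 549 and 524 CPM in MEF, 7.85 through 26.5 to 83.7 CPM on day 3 and 0.323 through 29.2 to 60.9 CPM on day 9, without overlap (day 9 -4.05 ± 0.83, adjusted p = 0.00519). Col5a3 measured 130 and 127 CPM in MEF and at most 10.0 CPM in any transduced library (day 9 -5.51 ± 0.76, adjusted p = 0.000293). Col5a2 measured 1200 and 1182 CPM in MEF, 34.1 through 76.2 to 276 CPM on day 3 and 0 through 80.0 to 306 CPM on day 9. Its ranges did not overlap with MEF either, and it was called on day 3 (-3.29 ± 1.01, adjusted p = 0.0331) but not on day 9 (-3.18 ± 1.01, adjusted p = 0.0521). Without the library labelled PI8 day 9 its difference on day 9 was -3.01 with an adjusted p of 0.00499. Col11a1, with 87.9 and 85.03 CPM in MEF and up to 45.3 CPM elsewhere, was called on day 3 only (-2.88 ± 0.95, adjusted p = 0.0453), and its day 9 minus day 3 difference was not called.

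The basement membrane chains gave another picture: 0 of 5 tested type IV genes were called on either day by edgeR over all arms. Col4a1, which pairs with Col4a2 in nearly all basement membranes, measured 504 and 498 CPM in MEF, 23.2 through 140 to 280.5 CPM on day 3 and 12.3 through 71.3 to 459 CPM on day 9. Col4a2 measured 395 and 387 CPM in MEF, 11.5 through 115 to 261 CPM on day 3 and 10.3 through 62.0 to 460 CPM on day 9. For both genes PIP on day 9 was highest: Col4a2 there exceeded both MEF values and Col4a1 lay just below it, while SII was at the low end. The differences from MEF on day 9 were -1.55 ± 1.05 for Col4a1 (adjusted p = 0.342) and -1.29 ± 1.12 for Col4a2 (adjusted p = 0.468).

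By arm, Col4a1 fell in SI8 of the hCD2 line (45.4 and 49.7 CPM, log2 difference -3.13 ± 0.96, adjusted p = 0.0405) and in SII of the Clec9a line (23.2 and 31.7 CPM, -4.27 ± 1.00, adjusted p = 0.0147) and the hCD2 line (44.8 and 20.1 CPM, -3.99 ± 0.99, adjusted p = 0.0188). In PIP, with 280.5 and 459 CPM, the difference was -0.20 ± 0.88 (adjusted p = 0.895), and PI8, PIB, PI4 and SI8 of the Clec9a line were not called either. Col4a2 was called in the same 3 arms as Col4a1. The ratio of Col4a1 to Col4a2, which share a start region, was 1.28 and 1.29 in MEF and between 0.914 and 2.02 in the transduced libraries, a far narrower span than that of the type I pair. These chains are also made by endothelial cells, whose 6 markers summed to 24.1 and 23.4 CPM in MEF, 3.08 to 18.5 CPM in the transduced libraries and 274 CPM in the library labelled PI8 day 9; their part in the result was not tested.

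The X-linked pair, whose upstream sequences are shown above, had its own pattern. Col4a5, a chain of kidney and smooth muscle basement membranes, measured 28.7 and 28.1 CPM in MEF and overlapped that level in the transduced libraries, with 0.723 through 18.3 to 56.4 CPM on day 3 and 0 through 13.2 to 49.6 CPM on day 9. It was called lower in PIP, at 0.723 and 0.919 CPM (-4.86 ± 1.07, adjusted p = 0.00916), the lowest levels after the 0 of the library labelled PI8 day 9. Col4a6, its neighbour, was nearly silent in MEF with 8 counts in each library (0.202 and 0.167 CPM) and reached 3.55 and 7.89 CPM in SII of the Clec9a line and 12.4 and 6.76 CPM in SII of the hCD2 line. It was the only collagen gene that edgeR called higher than MEF in any arm: 4.84 ± 1.22 (adjusted p = 0.0203) in the Clec9a line, against 9% of all genes called higher, and 5.63 ± 1.26 (adjusted p = 0.0122) in the hCD2 line, against 8.83%. In each line this call was lost in 3 of 11 other settings, among them leaving out either MEF library, without a change of direction. All 4 SII libraries lay above every other library. DESeq2 also called Col4a6 higher in PIB and Col9a3, a cartilage chain under 5 CPM, higher in PI4 and PIP, as did edgeR without the library labelled PI8 day 9, where Col7a1 was called higher in SI8 of the Clec9a line as well. In cells with at least 10000 UMIs, and without the SI8 libraries of the hCD2 line, edgeR also called Col9a3 higher in PI4 and PIP.

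Type VI collagen, which links cells to the matrix around them, was lower in most libraries. Col6a1 measured 542 and 521 CPM in MEF, 4.23 through 5.41 to 13.6 CPM on day 3 and 0 through 11.1 to 17.6 CPM on day 9 (day 9 -5.74 ± 0.72, adjusted p = 0.000132). Col6a2 measured 322 and 311 CPM in MEF, 2.62 through 6.30 to 10.9 CPM on day 3 and 0 through 7.98 to 16.3 CPM on day 9 (day 9 -5.31 ± 0.72, adjusted p = 0.000266). Neither overlapped with MEF. Col6a3, the remaining main chain of the same protein, ran over a wider range. It measured 295 and 276 CPM in MEF, 104 and 61.4 CPM in PIP, 46.4 and 24.2 CPM in PIB, 37.7 CPM in PI8 day 3 and 24.0 and 7.99 CPM in PI4. In SI8 it stood at 5.45 and 4.84 CPM (Clec9a line) and 0.873 and 0.430 CPM (hCD2 line), and in SII at 0.0276 to 1.02 CPM. All libraries with Spib thus lay below all those with Pu.1 except the library labelled PI8 day 9, which had 0 counts. It was called lower in both SI8 and both SII arms, with log2 differences from -10.22 to -5.60, and in none of the 4 Pu.1 arms; PI8 against SI8 in the Clec9a line was not called for it.

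Fibril-associated genes split. Col12a1, the chain of type XII collagen, measured 209 and 205 CPM in MEF, 13.5 through 36.9 to 279 CPM on day 3 and 0.323 through 82.8 to 188 CPM on day 9. SII of the hCD2 line was highest on both days and exceeded MEF on day 3, and the gene was called in PIP alone (13.5 and 15.5 CPM, -3.58 ± 1.20, adjusted p = 0.0484). Col16a1 measured 45.3 and 42.5 CPM in MEF and 4.70 through 7.62 to 25.3 CPM on day 3, all below MEF (-1.98 ± 0.54, adjusted p = 0.0191), and 5.49 through 9.99 to 36.9 CPM on day 9, where it was not called. Col9a1 and Col9a2, chains of cartilage type IX collagen, were called lower on both days from 1.64 and 1.56 CPM and from 1.14 and 1.71 CPM in MEF. In transduced libraries Col9a1 had at most 3 counts and Col9a2 at most 6, and most libraries had 0, so no fold is given.

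Among the remaining classes, Col8a2 went from 33.0 and 30.9 CPM in MEF to at most 0.518 CPM in any transduced library (day 9 -7.46 ± 0.72, adjusted p = 1.28e-05). Col8a1, the other chain of type VIII collagen, an endothelial and vessel-wall network, measured 121 and 123 CPM in MEF, 13.5 through 34.5 to 98.2 CPM on day 3 and 0 through 30.8 to 194 CPM on day 9. PIB on day 9 exceeded MEF, so the ranges overlapped, and the gene was not called (-1.37 ± 1.06, adjusted p = 0.409). Col18a1, whose C-terminal fragment is endostatin, measured 127 and 122 CPM in MEF and 0.607 to 23.3 CPM in transduced cells, without overlap (day 9 -4.20 ± 1.02, adjusted p = 0.0139). Col28a1 was called lower on both days, from 3.46 and 3.94 CPM in MEF to at most 0.436 CPM, with 0 counts in PI8, PI4 and PIP. Of the lower-level fibrillar genes, Col24a1 had 8.98 and 8.17 CPM in MEF and at most 4.28 CPM in transduced cells. Col27a1 had 14.8 and 13.5 CPM in MEF and at most 13.9 CPM, in PIP on day 3. Col25a1, a transmembrane collagen of nerve and muscle, had 4.24 and 4.63 CPM in MEF and at most 5.07 CPM, in PI4 on day 9, and Col7a1, the anchoring fibril of skin, reached 5.64 CPM in SI8 of the Clec9a line on day 9. None of these 4 was called over all arms. The 18 genes that never reached 5 CPM were Col2a1, Col4a3, Col4a4, Col6a4, Col6a5, Col6a6, Col9a1, Col9a2, Col9a3, Col11a2, Col13a1, Col14a1, Col15a1, Col19a1, Col20a1, Col22a1, Col26a1 and Col28a1, with a count in 2 (Col6a4 and Col13a1) to 20 (Col9a3) of the 21 libraries.

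Each arm was also set against MEF by itself, with both days together. The number of collagen genes called lower by edgeR, of 36, was 13 in PI8 (8.42% of all genes lower), 10 in PIB (3.86%), 11 in PI4 (6.13%) and 17 in PIP (10.5%). It was 11 in SI8 of the Clec9a line (5.71%), 16 in SI8 of the hCD2 line (9.6%), 19 in SII of the Clec9a line (8.31%) and 15 in SII of the hCD2 line (8%). Of the genes above 5 CPM in any library, Col3a1, Col5a3, Col6a1, Col6a2, Col8a2 and Col18a1 were called lower in all 8 arms. Col5a1 was called in all but PIB, and Col1a1 in all but PIB and SI8 of the Clec9a line. Col1a2 was called in SI8 of the hCD2 line only (-4.92 ± 1.51, adjusted p = 0.0415). These comparisons share the 2 MEF libraries, and with the library labelled PI8 day 9 left out more genes were called, collagens and others alike. Of 37 collagen genes then tested, 17 were lower in PI8, represented by day 3 alone (8.5% of all genes lower), 16 in PIB (11.2%), 22 in PI4 (14.1%) and 19 in SI8 of the Clec9a line (13.4%). The lower ones numbered 20 in PIP (18.4%) and 22 in SI8 of the hCD2 line (16.5%). They numbered 24 in SII of the Clec9a line (14.4%) and 21 in SII of the hCD2 line (14.2%). In PIB, PI4, PIP, SI8 of the Clec9a line and both SII arms 1 was higher. There 13.6% (PIB) to 20.4% (PIP) of all genes were called higher. In SI8 of the hCD2 line 0 were higher (15.8% of all genes). Leaving out either MEF library leaves 1 in that group, and fewer genes were then called in every arm, collagens and others alike. No collagen gene stayed called in PIB or in SI8 of the Clec9a line.

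**Figure D3:**
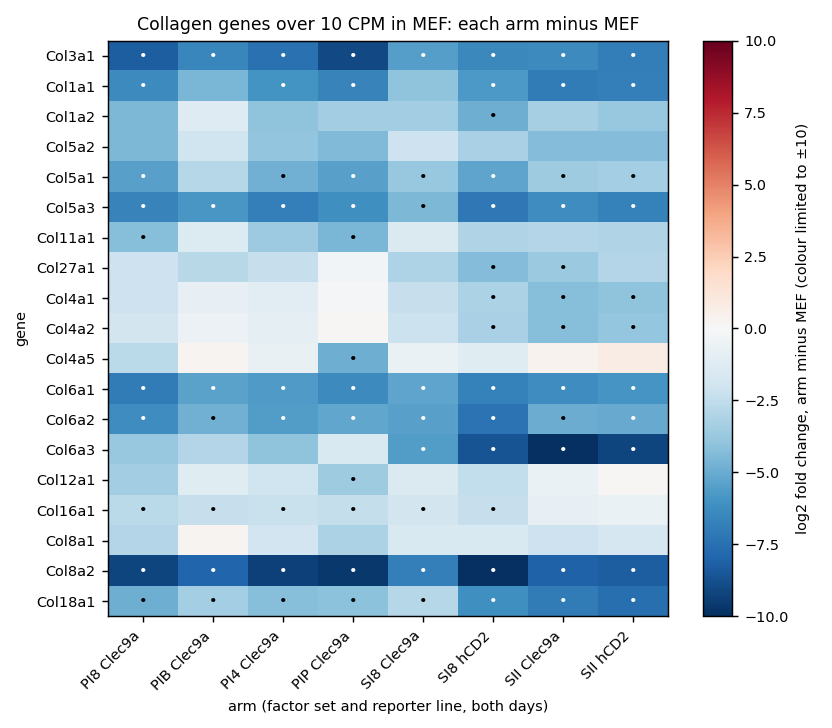
Fitted log2 difference from MEF for each arm (columns) and each collagen gene over 10 CPM in MEF (rows), from edgeR; blue to red shows lower to higher with the colour limited to 10 in either direction, and dots mark an adjusted p under 0.05. The Col3a1, Col5a3, Col6a1, Col6a2, Col8a2 and Col18a1 rows carry dots in all 8 arms, and Col6a3 carries dots in the SI8 and SII arms only.

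The addition of Ikzf2 to Spib and Irf8 could be compared in 4 matched pairs, on days 3 and 9 in both reporter lines. SII differed from SI8 in 5 collagen genes upwards and 9 downwards of 32 tested, where 18.8% of all genes were called higher and 18.8% lower. In both directions together 14 of 32 collagen genes were called, near the 37.6% of all genes. The calls below are thus no more than a description of single genes. The median log2 difference was -0.58 for the collagen genes and 0.04 for all genes. Scaled by library totals alone, the split was 6 higher and 7 lower for collagens, and 4966 higher and 2009 lower for all genes, whose median moved to 0.34.

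The genes that rose were Col4a6, Col10a1, Col12a1, Col4a5 and Col16a1, each higher in SII in 4 of 4 pairs. Col4a6 stood at 3.55, 7.89, 12.4 and 6.76 CPM in SII (Clec9a line on days 3 and 9, then hCD2 line) and at 1.37, 0.634, 0 and 0.430 CPM in SI8, so that all SII libraries lay above all SI8 libraries (2.84 ± 0.59, adjusted p = 0.00809). Col4a5, in the same order, stood at 27.8, 49.6, 56.4 and 40.5 CPM in SII and at 20.6, 9.45, 9.17 and 11.4 CPM in SI8, again without overlap (1.46 ± 0.33, adjusted p = 0.0122). Thus both genes of the X-linked pair moved the same way, while Col4a1 and Col4a2 moved the other way. Col12a1 stood at 101, 179, 279 and 188 CPM in SII and at 40.6, 94.1, 32.7 and 29.0 CPM in SI8, without overlap (1.69 ± 0.43, adjusted p = 0.0183). Col16a1 stood at 15.1, 36.9, 25.3 and 34.1 CPM in SII and at 8.78, 13.6, 6.11 and 8.60 CPM in SI8, likewise without overlap (1.23 ± 0.23, adjusted p = 0.00549). Col10a1, a collagen of hypertrophic cartilage, had 5.82, 5.22, 3.83 and 11.1 CPM in SII and 1.88, 0.403, 0.437 and 0 CPM in SI8 (2.60 ± 0.75, adjusted p = 0.0287). The 6 chondrocyte markers summed to 33.2 to 49.8 CPM in SII and 12.5 to 24.1 CPM in SI8, nearly all of it Sox9 (32.5 to 49.8 and 12.2 to 24.0 CPM), with Acan at 0 in all 8 libraries; their part in the result was not tested.

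The genes that fell in SII included fibrillar chains and the main type IV pair. Col5a2 stood at 57.6, 69.1, 53.6 and 70.3 CPM in SII and at 195, 306, 94.7 and 118 CPM in SI8, without overlap (-1.67 ± 0.24, adjusted p = 0.00194). Col1a1 stood at 39.6, 50.9, 36.7 and 62.3 CPM in SII and at 300.5, 274, 106 and 62.1 CPM in SI8, lower in 3 of 4 pairs, with the groups meeting at day 9 of the hCD2 line (-2.04 ± 0.42, adjusted p = 0.0081). Col4a1 stood at 23.2, 31.7, 44.8 and 20.1 CPM in SII and at 89.2, 93.0, 45.4 and 49.7 CPM in SI8, lower in 4 of 4 pairs (-1.47 ± 0.32, adjusted p = 0.00932). Col4a2 followed it (-1.45 ± 0.41, adjusted p = 0.0265, lower in 3 of 4 pairs). Col18a1 fell from 1.29 to 23.3 CPM in SI8 to 0.607 to 1.14 CPM in SII (-3.09 ± 0.64, adjusted p = 0.00812), and Col7a1 from 2.58 to 5.64 CPM to 0.703 to 1.97 CPM (-2.07 ± 0.39, adjusted p = 0.00558). Col14a1 (0.436 to 0.864 CPM in SI8 and at most 0.0414 CPM in SII), Col15a1 and Col22a1 were called lower too, on few counts. Col1a2, in contrast, stood at 747, 186, 528 and 164 CPM in SII and 450, 263, 145 and 109 CPM in SI8 and was not called, and Col3a1 (24.1, 133, 44.7 and 63.5 CPM against 118, 124, 61.1 and 52.2 CPM) was not called.

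**Figure D4:**
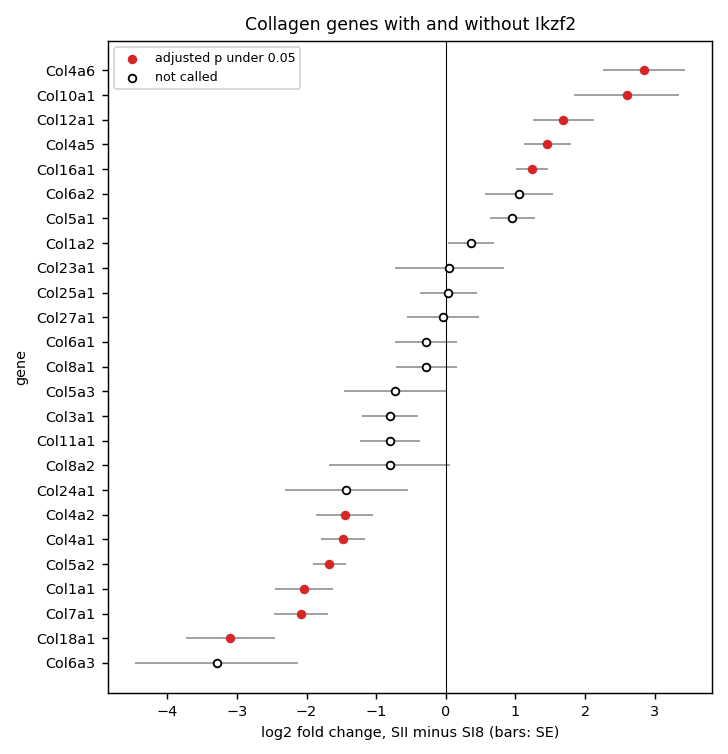
Fitted log2 difference SII minus SI8 (x axis) with its standard error (bars) for the 25 tested collagen genes that reach 5 CPM in any library, from edgeR over 4 pairs of libraries; filled points have an adjusted p under 0.05. Col4a6, Col10a1, Col12a1, Col4a5 and Col16a1 lie to the right of 0 and Col18a1, Col7a1, Col1a1, Col5a2, Col4a1 and Col4a2 to the left; the called Col14a1, Col15a1 and Col22a1 are below that level and are not drawn.

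Library quality went with this comparison. The 3 RNA-quality genes took 8.32% and 10.8% of UMIs in SI8 of the hCD2 line, 0.286% and 3.66% in SI8 of the Clec9a line and 0.146% to 0.593% in SII. Without the SI8 libraries of the hCD2 line, 0 collagen genes were called higher and 6 lower (Col14a1, Col18a1, Col1a1, Col4a1, Col5a2 and Col7a1). Col12a1 then differed by 0.85 (adjusted p = 0.224), Col4a6 by 2.23 (adjusted p = 0.0878) and Col4a5 by 1.17 (adjusted p = 0.176). In cells with at least 10000 UMIs, Col16a1 and Col4a6 were called higher and 5 genes lower. That check lacked SI8 of the hCD2 line on day 3, which had 11 such cells, under the limit of 20. The day 9 library of the same arm rested on 31 cells. With the matched pairs as a block, 5 were higher and 9 lower, with Col6a3 (-3.56) in place of Col22a1. Calls over all genes moved as well, from 1618 to 6975 across all settings of this comparison, against 5798 in the main fit. The shares of all genes without the SI8 libraries of the hCD2 line and in deep cells are not given here. Whether collagens lost more calls there than other genes is therefore not shown. Pericyte and smooth muscle markers summed to 23.2 to 114 CPM in SII and 192 to 1670 CPM in SI8, mostly Acta2 (15.97 to 96.6 and 175 to 1653 CPM), and the fibroblast list without collagens to 279 to 1169 and 690 to 3095 CPM; their part in the result was not tested.

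Other factor changes gave no collagen call with edgeR. For Batf3 (PIB minus PI8), 0 of 32 genes were called, with 0% of all genes called, 6 collagen genes at an unadjusted p under 0.05 and 2 called by DESeq2. Col1a2 stood at 1673 and 1920 CPM in PIB and at 367 and 3.39 CPM in PI8, which does not overlap (3.99 ± 1.40, adjusted p = 0.213). The PI8 day 9 value comes from the library that stood apart from its line. Without that library 0 collagen genes were called, and with it as the only PI8 library 18 of 35 were, when 42.4% of all genes were called. For Prdm1 (PIP minus PI4), 0 of 32 were called (0.137% of all genes), 2 had an unadjusted p under 0.05 and DESeq2 called 2. Without the library labelled PI8 day 9, which shares the fit, edgeR called 2 lower (3.92% of all genes called). The largest gaps were Col4a5, with 0.723 and 0.919 CPM in PIP and 16.1 and 15.0 CPM in PI4 (-4.08 ± 1.10, adjusted p = 0.225), and Col25a1 (-2.19 ± 0.53, adjusted p = 0.18). The 3 RNA-quality genes took 1.17% and 3.47% of UMIs in PI4 and 0.316% and 0.680% in PIP, and 67.8% and 60.3% of PI4 cells against 1.36% and 1.77% of PIP cells had under 10000 UMIs; their part in the result was not tested. For Pu.1 against Spib in the Clec9a line (PI8 minus SI8), 0 were called (0% of all genes), 3 had an unadjusted p under 0.05 and DESeq2 called 1, and again 18 of 35 were called with the library labelled PI8 day 9 as the only PI8 library (42.2% of all genes) and 0 without it. For the Irf4 arms against the Irf8 arms, 0 of 30 were called (0.00697%), 3 had an unadjusted p under 0.05 and DESeq2 called 2. Each arm entered these comparisons with its 2 days as the only libraries.

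Between day 3 and day 9, 0 of 32 collagen genes were called over the 8 arms (0.0808% of all genes), 2 had an unadjusted p under 0.05 and DESeq2 called 0. A single gene was called higher when the library labelled PI8 day 9 was left out (7.55% of all genes called). Col16a1 and Col5a2 were higher on day 9 in 7 of 8 arms and Col6a3 in 1 of 8, without passing the test. Between the hCD2 and Clec9a lines, 0 of 32 were called (0.0195%), 3 had an unadjusted p under 0.05 and DESeq2 called 0. The change of the Ikzf2 difference between the days gave 0 calls (1.05% of all genes), 5 unadjusted p under 0.05 and 0 by DESeq2. Among those 5 was Col1a2, for which SII exceeded SI8 by more on day 3 than on day 9 (-1.22 ± 0.46, adjusted p = 0.207).

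The level of a library could come from a few cells rich in collagen RNA or from many with little, so collagen UMIs were counted in cells thinned to 2500 UMIs each. MEF cells had a median of 51 and 50 collagen UMIs (5th to 95th percentile 28 to 78 and 28 to 77), and 0 of 2045 and 0 of 1728 cells had none. PIB cells had medians of 7 and 8, and the other transduced libraries 0 to 3. The share of cells with no collagen UMI ran from 1.13% in PIB on day 3 to 91.2% in the library labelled PI8 day 9, and was 96.4%, 95.9% and 96.9% in cDC1, cDC2 and pDC. A Col1a2 UMI was present in 91.2% and 86.0% of PIB cells and in 69.9% and 55.4% of SII cells on day 3. In splenic cells, which should lack it, the share was 0% in cDC1, 0.0532% in cDC2 and 0% in pDC at the same number of UMIs. Over the 16 transduced libraries the median share of cells with a UMI was 45.1% for Col1a2, 17.9% for Col4a1, 15.2% for Col1a1, 9.88% for Col12a1 and 9.10% for Col3a1. Without thinning these shares were 89.2%, 58.3%, 61.6%, 52.4% and 38.4%, and over the 15 libraries other than the one labelled PI8 day 9 the thinned ones were 46.1%, 19.5%, 15.9%, 10.7% and 9.55%.

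**Figure D5:**
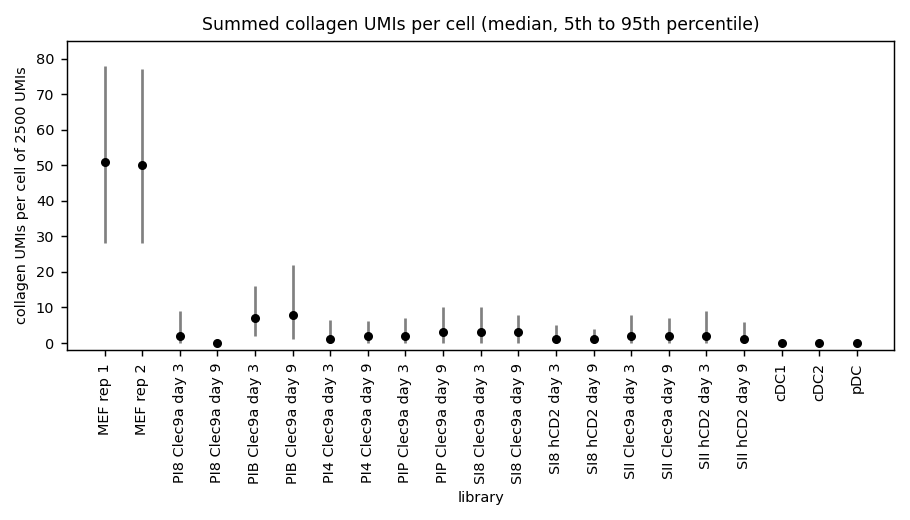
Collagen UMIs per cell, summed over the 44 genes in cells thinned to 2500 UMIs (y axis), by library (x axis); points are medians over cells and bars run from the 5th to the 95th percentile. The 2 MEF libraries, with medians of 51 and 50, stand apart from all others, and PIB with 7 and 8 is highest among the transduced.

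Cells with a UMI of Ptprc (CD45, the common surface protein of blood cells) were compared with cells of the same library in which no Ptprc UMI was seen, at a common depth of 10000 UMIs, in the 10 transduced libraries with at least 20 cells of each. Of 21 tested collagen genes, 10 were lower in Ptprc-positive cells and 0 higher, against 5.8% of all genes lower and 1.78% higher. Col1a1 was lower in 9 of 10 libraries and at 0 counts in both classes of the library labelled PI8 day 9. In positive and negative cells it measured 91.4 and 138 CPM in PI8 day 3, 209 and 319 CPM in PIB day 3, 88.8 and 165 CPM in PIB day 9, 30.0 and 48.1 CPM in PIP day 3, and 25.8 and 39.3 CPM in PIP day 9. In SII it measured 33.0 and 43.2, then 42.7 and 53.2 CPM in the Clec9a line and 19.8 and 40.0, then 37.9 and 65.5 CPM in the hCD2 line. Within each of these libraries the positive cells were the lower ones, by a log2 difference of -0.71 ± 0.08 (adjusted p = 3.92e-06). Col8a1 (-0.99 ± 0.12, adjusted p = 5.45e-06), Col10a1 (-1.65 ± 0.28, adjusted p = 0.000443), Col12a1 (-0.82 ± 0.15, adjusted p = 0.000736) and Col4a1 (-0.43 ± 0.07, adjusted p = 0.000445) fell likewise. The other 5 called genes, Col4a2, Col5a1, Col3a1, Col16a1 and Col5a2, differed by between -0.51 and -0.28. Col1a2 went the other way without passing the test (0.28 ± 0.09, adjusted p = 0.0543), with 2125 and 2538 CPM in Ptprc-positive PIB cells against 1566 and 1651 CPM in negative ones.

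This comparison moved with its settings. All genes split into 228 higher and 744 lower with TMM factors, 336 higher and 379 lower with RLE factors and 305 higher and 435 lower with library totals. The collagen genes split into 0 higher and 10 lower, 1 and 6, and 1 and 7, and DESeq2 gave 1 and 5. Without the library labelled PI8 day 9 the split was 1 higher and 7 lower of 22 collagen genes and 344 higher and 410 lower over all genes, and Col3a1, Col16a1 and Col5a2 were not called. With Cd53, another gene of blood cells, in place of Ptprc, 5 collagen genes were called higher and 1 lower. None of the 10 calls made with Ptprc was kept. Of these genes 7 changed sign, and Col16a1, Col4a1 and Col4a2 were called higher. The other 3 kept direction only, among them Col1a1 (-0.020, edgeR adjusted p = 0.996). The split of all genes with Cd53 is not given here, so it is not shown that this turn is particular to collagens. Across all settings of this comparison, calls over all genes ran from 234 to 1102.

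Splenic dendritic cells had few collagen transcripts, and those they had came mostly from transmembrane collagens, which took 67.7%, 51.7% and 66.5% of collagen UMIs in cDC1, cDC2 and pDC and 0.0315% and 0.0274% in MEF. Col23a1 measured 14.2 CPM in cDC1 (exact Poisson 95% interval 12.2 to 16.3, counting error only), 7.06 CPM in cDC2 (6.03 to 8.23) and 1.81 CPM in pDC (1.46 to 2.21), in descending order without overlap of the intervals. Col17a1, a hemidesmosome protein of skin, ran the other way, with 7.19 CPM in pDC (6.49 to 7.95), 2.48 CPM in cDC2 (1.89 to 3.21) and 0.151 CPM in cDC1. Col27a1, a fibrillar collagen, measured 3.86 CPM in cDC1 (2.87 to 5.08) and 5.35 CPM in cDC2 (4.45 to 6.38) and had 0 counts in pDC. In cells thinned to 2500 UMIs, a Col23a1 UMI was seen in 2.58%, 1.65% and 0.264% of cDC1, cDC2 and pDC, and a Col17a1 UMI in 0%, 0.638% and 1.78%. In the transduced libraries Col23a1 stayed at or under 1.71 CPM and Col17a1 at or under 0.127 CPM. With 1 library each, these splenic levels have no replicate check.

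Genes that act on collagen after transcription were followed in 5 lists, chosen with earlier results of these data known. In the endoplasmic reticulum group of modifying and folding proteins, 6 of 19 tested genes were lower than MEF on day 9 and 0 higher, and 7 were lower on day 3. For this list and the following ones, 5.54% of all tested genes were lower and 5.01% higher on day 9, and 8.38% lower on day 3, with far fewer calls when either MEF library was left out, as given above. Ppib, a prolyl isomerase, measured 1114 and 1147 CPM in MEF (-1.27 ± 0.23, adjusted p = 0.00224), and P4hb, a subunit of prolyl 4-hydroxylase, 543 and 544 CPM (-1.39 ± 0.29, adjusted p = 0.0054). The lysyl hydroxylase Plod1 fell by 2.44 ± 0.47 (adjusted p = 0.00367). Serpinh1, the collagen chaperone, measured 1425 CPM in both MEF and was not called (-2.66 ± 0.88, adjusted p = 0.0608). The called differences of Ppib, P4hb and Plod1 were thus smaller in size than those of Col1a1 and Col3a1 above, though no test compared them. Of 7 tested export genes 2 were lower on day 9, Sec31a and Sec23a.

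Of 13 tested genes of propeptide removal and crosslinking, 4 were lower on day 9 and 0 higher. Adamts2, which cuts the N-terminal propeptide, measured 48.6 and 48.1 CPM in MEF and fell (-4.29 ± 0.74, adjusted p = 0.00166). Loxl1 fell by 2.85 ± 0.75 (adjusted p = 0.0227) and Bmp1 by 1.80 ± 0.52 (adjusted p = 0.0358). Of 16 receptor and breakdown genes 2 were lower, among them the gelatinase Mmp2 (1074 and 1063 CPM in MEF, -4.54 ± 0.88, adjusted p = 0.00365). Of 11 TGF-beta genes, Tgfb1 (2.40 ± 0.56, adjusted p = 0.0111) and Tgfbr1 (2.01 ± 0.59, adjusted p = 0.0362) rose and Tgfb2 fell (-4.40 ± 0.69, adjusted p = 0.000912).

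Between SII and SI8 the same lists moved with larger counts, in a comparison where 37.6% of all genes were called. Endoplasmic reticulum genes gave 3 higher and 9 lower of 19, propeptide and crosslinking genes 1 higher and 8 lower of 13, receptor and breakdown genes 0 higher and 11 lower of 16, export genes 2 higher and 0 lower of 7, and TGF-beta genes 5 higher and 2 lower of 11. Ctsk, the cathepsin that cleaves triple-helical collagen, stood at 1.39, 3.33, 0.716 and 3.97 CPM in SII and at 643, 895, 323 and 593 CPM in SI8, without overlap (-8.49 ± 0.41, adjusted p = 3.54e-05). Lox, the crosslinking lysyl oxidase, stood at 2.81, 16.7, 3.14 and 21.7 CPM against 231, 397, 172 and 145 CPM (-5.17 ± 0.58, adjusted p = 0.00081). Serpinh1 stood at 67.5, 113, 71.6 and 108 CPM against 471, 312, 376 and 234 CPM (-2.24 ± 0.27, adjusted p = 0.00108). Plod2, which hydroxylates lysines of the telopeptides, rose by 1.32 ± 0.24 (adjusted p = 0.00474) and Tgfbr2 by 1.48 ± 0.13 (adjusted p = 0.000312).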

How the data were processed

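Single cells were profiled with the 10x Chromium 3′ kit in all 21 libraries. The deposited table holds raw UMI counts per gene and cell, whole numbers that were not normalized. Per the submitters' processing notes, which give no roles, the tools were Cell Ranger 6.0.1 and Seurat, with mm10 as build; filters on cells, strand settings and doublet removal are not given in the sources used here. Antisense and overlapping genes were therefore not separated from collagen genes beyond what the authors' counting did.

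Counts were summed per library (18 libraries for MEF comparisons) and tested with edgeR 4.0.16 (TMM factors, filterByExpr, two-sided quasi-likelihood test, Benjamini-Hochberg adjustment over all genes tested, called under 0.05). Day 9 against day 3 had the arm as a block, and the Ikzf2 comparison had line and day as terms. The 2 MEF libraries differed beyond sampling noise (chi-square per degree of freedom 2.35 over 15245 genes with at least 10 counts) and counted as 2. Scrublet in scanpy 1.11.5 marked 178 cells (0.685%), which stayed in the main fits; Python 3.11.15, R 4.3.3 and DESeq2 1.42.0 were also used. Cells were thinned to 2500 UMIs for shares and to 10000 UMIs for the Ptprc split, which left out shallower cells: 98.3% and 97.4% of cells in SI8 of the hCD2 line, 69.5% in the library labelled PI8 day 9, 67.8% and 60.3% in PI4 and 46.8% in SI8 of the Clec9a line on day 9 had fewer than 10000. Intervals are exact Poisson or Clopper-Pearson 95% intervals and cover counting error only. A depth of 2291128 UMIs in the shallowest library makes 1 count there worth 0.436 CPM.

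The fits were also run on simulated counts with known changes, whose outcome is not reported here and supports no result above. Alternatives were DESeq2, RLE factors, library totals, no filter, thinning, deep cells, doublet removal, and libraries left out in turn. The median shares of cells without the library labelled PI8 day 9 were added after seeing the data.

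The collagen genes and all lists were chosen with earlier results of these data known. Genes of at least 100 CPM in MEF were described in full, called genes with their values, others that reach 5 CPM by range, and the rest by name. Loci are from GENCODE M21 (GRCm38), which held all 44 genes.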

Additional observations from a re-analysis of the deposited data

Results flagged for a closer look

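For 4 genes, 1 value stood apart from the other 7 of their group of 8 libraries, all in the library labelled PI8 day 9 among the libraries of day 9. There Col1a1 measured 0.161 CPM (the others 38.3 to 274 CPM), Col1a2 3.39 CPM (109 to 1920 CPM), Col5a1 0.323 CPM (10.3 to 60.9 CPM) and Col5a2 0 CPM (62.7 to 306 CPM), each compared on the log2(CPM + 1) scale by its gap to the nearest library. In all, 28 groups of 8 libraries were examined, and chance flags about 1 in 20. This library also had 1 count of 4 Y-linked genes, against 40.4 to 96.0 CPM in the other 11 libraries of its line, with 1119 CPM of Xist against 136 CPM in PI8 day 3. Whether it holds cells of the labelled culture was not tested.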

How the results depend on the processing

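Over 164 calls of a collagen gene in a comparison, 1911 alternative values were computed, of which 1586 kept direction and call, 318 kept direction only and 7 changed sign. Against MEF, with 2 libraries there and 2 in each arm, leaving out a MEF library left 7 to 8 collagen calls on day 9, 9 on day 3, 8 to 9 in PI8, 0 in PIB and SI8 of the Clec9a line, 2 in PI4, 10 in PIP, 7 in SI8 of the hCD2 line and 5 in each SII arm. Without the library labelled PI8 day 9 there were 17 calls in PIB, 23 in PI4, 20 in SI8 of the Clec9a line, 1 for day 9 minus day 3 and 2 for PIP minus PI4. DESeq2 called 2 genes for PIB minus PI8, 2 for PIP minus PI4, 1 for PI8 minus SI8, 2 for Irf4 against Irf8 and 6 for the Ptprc split. Over all genes it called 3289 on day 9, 4371 on day 3 and 1201 for day 9 minus day 3, against 1746, 2825 and 13 by edgeR. In cells with at least 10000 UMIs SI8 of the hCD2 line had 4 calls and SII minus SI8 had 7, and without the hCD2 SI8 libraries the latter had 6. Leaving out libraries in turn gave 0 to 1 calls for day 9 minus day 3, 0 to 18 for PIB minus PI8 and for PI8 minus SI8, 11 to 13 for SII minus SI8, 0 to 2 for its change between days and 7 to 9 for the Ptprc split. The Ptprc split gave 6 at 2500 UMIs and 6 with Cd53, where 5 were higher and 1 lower. Unthinned, the median shares of cells with a UMI were 61.6% (Col1a1), 89.2% (Col1a2), 38.4% (Col3a1), 58.3% (Col4a1) and 52.4% (Col12a1), as greater depth per cell gives. With Cd53 the signs turned for Col12a1 (0.38), Col16a1 (0.67), Col3a1 (0.025), Col4a1 (0.35), Col4a2 (0.37), Col5a1 (0.081) and Col8a1 (0.13). Uncalled genes of SII minus SI8 also turned, among them Col1a2 (-0.35 in deep cells, -0.15 without the hCD2 SI8 libraries) and Col6a1 (0.0051 with library totals, 0.0097 thinned). Col8a1 (0.027 with totals) ran from -0.75 to 0.16 over all alternative settings, and Col5a3 from -1.36 to 0.46. The cause was not tested.

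With each matched pair of line and day as a replicate block, SII minus SI8 gave 14 collagen calls and 4741 over all genes (5798 without it). Day 9 minus day 3, with no replicate block for the arm, gave 0 collagen calls.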
